A study of Mus musculus with 2 samples.

Results

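The mitochondrial ribosomal proteins were taken as every mouse protein-coding gene whose symbol starts with Mrpl or Mrps followed by a digit. The annotation holds 78 such genes, 49 Mrpl and 29 Mrps, and 75 of them were found among the 25923 assembled features of the files. The cells were bone marrow mesenchymal stem/progenitor cells grown in culture, and their total RNA was sequenced in 2 libraries. One library came from PPARg-deficient cells (genotype label PPAR KO) and the other from PPARg-floxed cells (genotype label PPAR-flox). Both came from 3-month-old CD-1 mice, and both cultures were kept in DMEM with 10% FBS. The labels do not give the Cre driver, the deleted exons, the number of animals or any pooling. PPARg, a nuclear receptor, drives the formation of fat cells. The comparison asks how RNA levels differ when it is lost. There was 1 library per genotype, so no spread between cultures could be measured, no test was possible, and every call below is by size alone.

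Mitochondrial ribosomes translate the few proteins that the mitochondrial genome encodes, which are subunits of the respiratory chain and of ATP synthase. Their RNA comes from the mitochondrial genome, but all of their proteins are encoded in the nucleus, made in the cytosol and imported. The large subunit (Mrpl genes) forms the peptide bond, and the small subunit (Mrps genes) binds the mRNA and reads the codons. Some of the proteins have bacterial homologues, and others were gained by the mitochondrial lineage. In mesenchymal progenitors, mitochondrial activity is known to change as cells differentiate into bone or fat cells.

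Pparg was at 1.39 FPKM in the deficient library and 6.86 FPKM in the floxed library, the direction that the labels give. FPKM scales fragments by transcript length and library size, so levels can be compared between genes. Of 12 stromal markers 9 reached 1 FPKM in each library, with sums of 1577 FPKM in deficient and 904 FPKM in floxed cells, while Lepr, Thy1 and Eng stayed below 1 FPKM in both. Of 7 leukocyte markers found, Lyz2 (19.5 FPKM in deficient, 0.26 FPKM in floxed cells) and Cd14 (12.5 FPKM in deficient, 4.52 FPKM in floxed cells) made up most of a list sum of 32.0 FPKM in deficient and 4.78 FPKM in floxed cells. Ptprc, Itgam, Adgre1 and Cd3e were at 0 in both libraries, and no erythroid or endothelial marker reached 1 FPKM. The part of Lyz2-expressing cells in the results below was not tested. In bulk RNA, fewer cells of a type and less RNA per cell cannot be told apart. The deficient library had 1728 Mb of summed read coverage and the floxed library 1383 Mb.

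Most mitochondrial ribosomal protein genes were higher in the deficient library, and more so than the median gene. Of the 75 found, 72 reached 1 FPKM in at least 1 library and were kept. Of those 72, 5 genes, namely Mrps2, Mrps12, Mrps26, Mrpl3 and Mrps34, reached 1 FPKM in the deficient library alone, so their direction was fixed by the filter. Mrpl38, Mrps24 and Mrps30 stayed below 1 FPKM in both libraries, and Mrpl34, Mrpl50 and Mrpl57 were matched to no assembled transcript. The summed level of the 75 genes found was 5858 FPKM in deficient cells and 3166 FPKM in floxed cells, a ratio of 1.85. Over all features that ratio was 2.25, so the 75 genes held 0.158% of summed FPKM in deficient and 0.192% in floxed cells. Of the FPKM in transcripts of at least 300 nt they held 0.860% in deficient and 0.500% in floxed cells. The median level of the 72 kept genes was 39.9 FPKM in deficient cells and 14.8 FPKM in floxed cells, and 69 of the 72 were higher in deficient cells, as were 86.2% of all kept loci. Among the 67 genes that reached 1 FPKM in both libraries it was 64.

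The median of all 10724 kept loci was itself higher in deficient cells by 0.86 on the log2 scale (1.81-fold). Folds below are therefore log2 ratios of FPKM + 1, deficient over floxed, minus that median, and are called relative log2 folds. Adding 1 FPKM understates the change of low genes. The 72 genes had a median relative log2 fold of 0.47 (quartiles 0.00 and 1.06, range -1.08 to 3.47), and 54 of the 72 lay above the median gene, where 50% of loci do by construction. At least 2-fold higher relative to the median gene were 20 of the 72 (27.8%), against 10.3% of all kept loci. That count depended on the scaling and the filter, with 11 genes higher on a TPM scale without centring, against 7.79% of all loci kept there, and 45 with no filter on low values, against 17.0% of loci. At least 2-fold lower were 2 of the 72, Mrps33 and Mrps35, against 11.7% of all kept loci, and with a pseudocount of 5 FPKM or with no filter there were 0. As deposited, without centring, 48 of the 72 were at least 2-fold higher, against 41.9% of all kept loci, and 0 were 2-fold lower, against 4.66%. Of the 5 genes kept through the deficient library alone, the 20 include Mrps2 and Mrps12, the 54 all 5, and the 48 all but Mrps34. All kept loci include 2459 of that kind. On the TPM scale, where no centring is applied, the counts were 11 higher and 3 lower, against 7.79% and 13.3% of all loci kept there. Among the mitochondrial ribosomal protein genes of at least 5 FPKM in a library, 15 were higher and 3 lower relative to the median gene. The shares over all loci that passed this filter were 11.8% higher and 14% lower.

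The deposited tables also give lower and upper bounds for each transcript, which describe the estimate within 1 library and not the spread between cultures. For the most abundant transcript of each of the 72 genes, the bounds were apart with the deficient library higher in 63, against 63.5% of all kept loci. The 63 include Mrps2, Mrps12 and Mrps26, which were kept through the deficient library alone. The bounds overlapped in the other 9 and were apart with the deficient library lower in 0, against 8.83% of all kept loci.

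**Figure D1:**
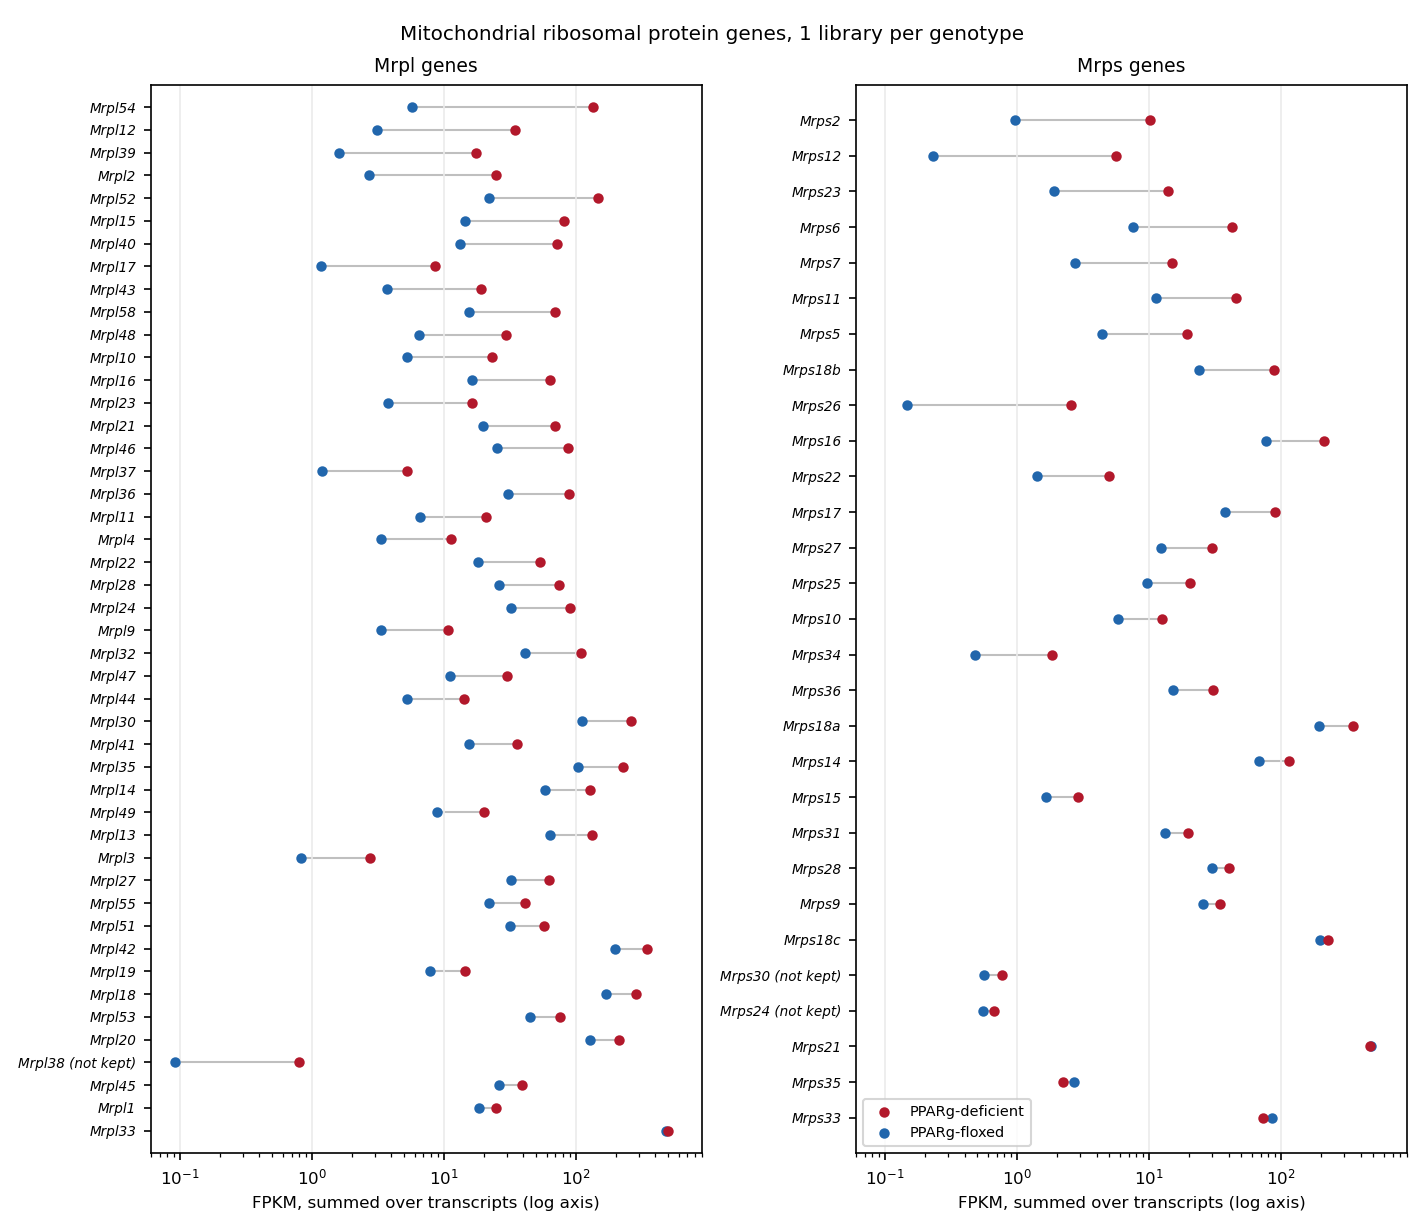
Level of each of the 75 mitochondrial ribosomal protein genes found, in FPKM on a log axis, in PPARg-deficient cells (first in the legend) and PPARg-floxed cells, with Mrpl genes in one panel and Mrps genes in the other, ordered by fold. Each point is 1 library. Mrpl54 stands out with 134 FPKM in deficient and 5.75 FPKM in floxed cells, while Mrps33, Mrps35 and Mrps21 were slightly lower in deficient cells.

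Summed over each locus, the 5 genes with the highest relative folds all belong to the large subunit, although Mrps6 would stand second, at 2.30, from its own transcript alone (described with the transcripts). Mrpl54 encodes mL54, a protein found in mitochondrial but not bacterial ribosomes. It had 134 FPKM in deficient cells and 5.75 FPKM in floxed cells, from a single transcript of 587 nt with 3 exons (chr10:80727467-80729671, minus strand, mm9), and its relative log2 fold was 3.47. The deposited bounds of that transcript were 122 to 147 FPKM in deficient cells and 3.18 to 8.32 FPKM in floxed cells. Mrpl54 held rank 12 among the 75 genes in deficient cells and rank 50 in floxed cells.

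Mrpl12 encodes bL12m, the stalk protein that recruits translation factors to the large subunit. It had 34.3 FPKM in deficient cells and 3.11 FPKM in floxed cells (chr11:120345983-120350068, plus strand, mm9), a relative log2 fold of 2.25. Mrpl10, whose product uL10m anchors that stalk, had 23.0 FPKM in deficient and 5.26 FPKM in floxed cells (1.08), just past the 2-fold line. Mrpl10 fell short of that line with a pseudocount of 0.1 FPKM (0.97), a filter of 5 FPKM (0.87) and TPM (0.78). Mrpl39, which encodes the mitochondrion-specific mL39, had 17.7 FPKM in deficient and 1.61 FPKM in floxed cells (chr16:84717825-84735547, minus strand, mm9; 1.98). Mrpl52, which encodes mL52, also mitochondrion-specific, had 147 FPKM in deficient and 22.1 FPKM in floxed cells (chr14:55045746-55048587, plus strand, mm9; 1.82). All of these genes except Mrpl10 were assembled as 1 transcript, so their folds do not depend on how reads were shared among isoforms.

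The start regions of Mrpl12, Mrpl39 and Mrpl52 are shown as the genes of highest fold that have a single RefSeq promoter entry. Each is 280 bases, from 250 before to 30 after the start, and is read 5′ to 3′ on the gene's strand from the RefSeq promoter table of build GRCm38.p6. Capitals mark matches to short motifs of factors known for nuclear-encoded mitochondrial genes, or to the general CCAAT box. The match is an NRF1 motif for Mrpl12 (chr11:120484387-120484666, plus strand), an NRF1 motif and a CCAAT box for Mrpl39 (chr16:84735215-84735494, minus strand), and a pair of ETS motifs on the reverse strand for Mrpl52 (chr14:54426659-54426938, plus strand).
Mrpl12: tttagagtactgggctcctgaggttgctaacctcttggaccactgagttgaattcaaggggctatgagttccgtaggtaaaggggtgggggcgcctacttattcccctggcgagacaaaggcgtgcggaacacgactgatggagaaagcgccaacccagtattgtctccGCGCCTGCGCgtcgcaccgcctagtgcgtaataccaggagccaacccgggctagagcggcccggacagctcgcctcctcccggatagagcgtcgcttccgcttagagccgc
Mrpl39: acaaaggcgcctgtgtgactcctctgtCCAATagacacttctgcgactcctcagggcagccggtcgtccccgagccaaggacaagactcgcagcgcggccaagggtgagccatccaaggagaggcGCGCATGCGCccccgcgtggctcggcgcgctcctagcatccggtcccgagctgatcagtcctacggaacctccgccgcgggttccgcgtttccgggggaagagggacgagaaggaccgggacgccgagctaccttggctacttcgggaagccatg
Mrpl52: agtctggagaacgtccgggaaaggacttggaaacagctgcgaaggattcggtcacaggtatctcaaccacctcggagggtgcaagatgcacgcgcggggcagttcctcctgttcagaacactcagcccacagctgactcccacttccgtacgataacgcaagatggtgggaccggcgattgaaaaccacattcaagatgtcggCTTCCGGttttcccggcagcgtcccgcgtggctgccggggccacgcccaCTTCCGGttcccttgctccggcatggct

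Other large subunit genes past the 2-fold line included parts of the conserved core. Mrpl2, whose product uL2m lies near the catalytic centre, had 24.6 FPKM in deficient and 2.73 FPKM in floxed cells (1.93). Mrpl15, whose product uL15m is a conserved core protein, had 81.2 FPKM in deficient and 14.4 FPKM in floxed cells (1.56). Mrpl16, which encodes uL16m, a protein close to the bound tRNAs, lay just past the line with 63.4 FPKM in deficient and 16.3 FPKM in floxed cells (1.04). Just short of it were Mrpl23, which encodes uL23m at the exit of the peptide tunnel (16.3 FPKM in deficient, 3.79 FPKM in floxed cells), and Mrpl21 (69.5 FPKM in deficient, 19.8 FPKM in floxed cells). Mrpl23 and Mrpl21 had relative log2 folds of 0.997 and 0.91, so a shift of 0.1 on the log2 scale would change which side they are on.

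In the small subunit the highest genes were low in floxed cells. Mrps2, which encodes uS2m, had 10.1 FPKM in deficient and 0.97 FPKM in floxed cells (chr2:28323586-28326697, plus strand, mm9; relative log2 fold 1.64). Mrps12, whose product uS12m lies at the decoding centre, had 5.58 FPKM in deficient and 0.23 FPKM in floxed cells (chr7:29524660-29526800, minus strand, mm9; 1.56). Both were kept only through their deficient value. Between these and the 2-fold line lay Mrps23, Mrps6 and Mrps7, at 1.51, 1.496 and 1.22, and just past the line lay Mrps11 and Mrps5. Mrps11, which encodes the platform protein uS11m, had 45.4 FPKM in deficient and 11.3 FPKM in floxed cells (1.06). Mrps5, which encodes uS5m at the mRNA entry, had 19.4 FPKM in deficient and 4.41 FPKM in floxed cells (1.06). The other genes past the line were the large subunit genes Mrpl40, Mrpl17, Mrpl43, Mrpl48 and Mrpl58, the last of which encodes the release-factor-like protein mL62, with relative log2 folds between 1.17 and 1.48.

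At the low end the level was nearly the same in both libraries, which put these genes below a median gene that was higher in deficient cells. Mrps33, which encodes the mitochondrion-specific mS33, had 73.0 FPKM in deficient and 85.7 FPKM in floxed cells (chr6:39751807-39760935, minus strand, mm9; -1.08). The bounds of its main transcript overlapped, 61.8 to 73.8 FPKM in deficient and 70.7 to 83.7 FPKM in floxed cells. Mrps35, which encodes mS35 of the subunit head, had 2.23 FPKM in deficient and 2.68 FPKM in floxed cells (-1.05), again with overlapping bounds, 1.18 to 3.28 FPKM in deficient and 1.51 to 3.85 FPKM in floxed cells.

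The next genes in that order had at most a small difference as deposited. Mrps21, which encodes bS21m, had 470 FPKM in deficient and 478 FPKM in floxed cells (-0.88). Mrpl33, which encodes bL33m, had 499 FPKM in deficient and 478 FPKM in floxed cells (-0.79). The other genes of the 8 lowest were Mrps18c (226 FPKM in deficient, 196 FPKM in floxed cells), Mrpl1, whose product uL1m forms the L1 stalk (24.7 FPKM in deficient, 18.4 FPKM in floxed cells), Mrps9 (34.4 FPKM in deficient, 25.4 FPKM in floxed cells) and Mrps28 (40.5 FPKM in deficient, 29.8 FPKM in floxed cells). Of these 8 genes 6 belong to the small subunit, and 5 were higher in deficient cells as deposited.

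The start regions of the low-end genes Mrps33, Mrps21 and Mrpl33 are shown beside those of the high end, in the same form. Mrps33 (chr6:39810907-39811186, minus strand, GRCm38.p6) has no match to any motif searched. Mrps21 (chr3:95871485-95871764, minus strand) has an NRF1 and an ETS motif, and Mrpl33 (chr5:31613701-31613980, plus strand) an ETS motif and a CCAAT box, so the same motifs stand at both ends of the order.
Mrps33: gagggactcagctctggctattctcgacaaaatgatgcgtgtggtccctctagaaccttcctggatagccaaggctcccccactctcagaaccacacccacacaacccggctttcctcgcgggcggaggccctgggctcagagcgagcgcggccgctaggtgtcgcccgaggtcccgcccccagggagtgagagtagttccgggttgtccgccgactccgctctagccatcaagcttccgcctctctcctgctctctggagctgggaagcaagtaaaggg
Mrps21: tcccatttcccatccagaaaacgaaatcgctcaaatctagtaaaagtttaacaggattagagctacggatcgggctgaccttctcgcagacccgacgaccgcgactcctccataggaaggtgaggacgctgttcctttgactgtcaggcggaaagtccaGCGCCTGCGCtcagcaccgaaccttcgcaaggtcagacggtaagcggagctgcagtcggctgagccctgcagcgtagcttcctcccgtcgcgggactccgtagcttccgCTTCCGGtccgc
Mrpl33: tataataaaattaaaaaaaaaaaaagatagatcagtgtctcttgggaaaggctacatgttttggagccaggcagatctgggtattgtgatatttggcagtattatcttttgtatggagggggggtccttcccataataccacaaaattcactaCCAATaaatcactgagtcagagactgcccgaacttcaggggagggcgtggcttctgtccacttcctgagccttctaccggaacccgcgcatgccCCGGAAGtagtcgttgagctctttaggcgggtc

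The middle of the order is shown by the 3 genes nearest its median. Mrpl47, which encodes uL29m, had 30.2 FPKM in deficient and 11.2 FPKM in floxed cells (0.50). Mrps22, which encodes mS22, had 4.97 FPKM in deficient and 1.42 FPKM in floxed cells (0.45). Mrpl44, which encodes mL44, a protein related to RNase III, had 14.3 FPKM in deficient and 5.24 FPKM in floxed cells (0.43). As deposited, the median log2 fold of the 72 genes was 1.33, of which the shift of the median gene makes up 0.86.

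Subunits of 1 particle differed widely in RNA level in both libraries. Over the 75 genes found, levels ran from 0.67 to 499 FPKM in deficient cells and from 0.09 to 478 FPKM in floxed cells. Their spread was 1.99 in deficient and 2.15 in floxed cells (SD over genes, log2 scale). At least 100 FPKM was reached by 16 genes in deficient and 9 in floxed cells, and 3 genes in deficient and 8 in floxed cells stayed below 1 FPKM. The highest mean levels were those of Mrpl33 and Mrps21, followed by Mrps18a (353 FPKM in deficient, 194 FPKM in floxed cells), Mrpl42 (347 FPKM in deficient, 199 FPKM in floxed cells), Mrpl18 (287 FPKM in deficient, 168 FPKM in floxed cells) and Mrps18c. These abundant genes all lay near or below the median gene in relative fold, the highest being Mrps18a at 0.01.

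The order of levels was largely shared. Across the 72 kept genes, log2 levels in deficient and floxed cells had a Pearson correlation of 0.92 and a Spearman correlation of 0.92, beside 0.89 and 0.84 over 8627 kept named loci. Genes are not independent replicates, and these values describe 2 libraries. Of the 10 highest genes in each library 9 were the same. The 6 highest held 37.9% of the summed FPKM of the 75 genes in deficient cells and 54.1% in floxed cells, so the sum was spread more evenly in deficient cells. Beside Mrpl54, the genes that stood most places higher in deficient cells were Mrpl12 (rank 40 in deficient, 58 in floxed cells) and Mrpl52 (rank 11 in deficient, 28 in floxed cells). Mrps33 stood most places lower (rank 25 in deficient, 10 in floxed cells). Relative fold and mean log2 level had a Spearman rho of -0.37 over the 72 genes and 0.17 over the 8627 named loci.

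By symbol, the 45 kept Mrpl genes had a median relative log2 fold of 0.60, with 13 at least 2-fold higher (28.9%) and 0 lower. Over all kept loci these shares were 10.3% higher and 11.7% lower. The 46 Mrpl genes found summed to 3876 FPKM in deficient and 1858 FPKM in floxed cells. The 27 kept Mrps genes had a median of 0.17, with 7 higher (25.9%) and 2 lower (7.41%). The 29 Mrps genes found summed to 1983 FPKM in deficient and 1308 FPKM in floxed cells. The Mrps median was -0.04 with TPM and 0.94 with no filter, beside 0.33 and 1.39 for the Mrpl genes. Symbols do not always follow the particle, because Mrps18a and Mrps30 encode proteins of the large subunit (mL66 and mL65). Assigned by structure, the median was 0.59 for 46 large subunit genes and 0.37 for 25 small subunit genes, with the same calls. The 44 kept genes with a bacterial homologue had a median of 0.55, with 12 higher (27.3%) and 0 lower. The 27 mitochondrion-specific genes had 0.43, with 8 higher (29.6%) and 2 lower (7.41%). Mrps36 was left out of both, since its product is now known as part of a mitochondrial dehydrogenase complex. Whether subunits or classes differ was not tested.

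The 3 paralogs of bacterial protein S18 had unlike folds. Mrps18b, which encodes mS40, had 88.8 FPKM in deficient and 24.0 FPKM in floxed cells (0.99), just short of the 2-fold line. Mrps18a, given above, had a relative log2 fold of 0.01 and Mrps18c, which encodes bS18m at the place of the bacterial protein, one of -0.65. The paralogs share sequence, and the way the authors' tools placed reads that fit several genes is not given in the sources used here.

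The assembly held 156 transcripts of these genes, with more than 1 for 45 of the 75. In 7 genes (Mrpl9, Mrpl10, Mrps2, Mrps6, Mrps10, Mrps18a and Mrps18b) a different transcript led in each library. For Mrps2, a 2079-nt transcript that matched the annotation had 9.66 FPKM in deficient cells, with bounds of 8.14 to 11.2, and was listed at 0 in floxed cells, with an upper bound of 0.12. A 2022-nt form, which matched no annotated structure, had 0.44 FPKM in deficient and 0.97 FPKM in floxed cells. The Mrps6 locus also holds Slc5a3, a myo-inositol transporter gene. A 10913-nt, 2-exon transcript that matches Slc5a3 had 8.98 FPKM in deficient and 4.66 FPKM in floxed cells, and the 780-nt form that matches Mrps6 had 33.6 FPKM (bounds 28.5 to 38.6) in deficient and 2.87 FPKM (bounds 1.34 to 4.40) in floxed cells. Counted from that form alone, a choice made after seeing the data, Mrps6 had a relative log2 fold of 2.30, rank 2 among the members, against 1.496 for the locus.

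Mrpl33 combined an equal sum with unlike parts. Its 4-exon form of 466 nt, the annotated structure, was listed at 0 in deficient cells, with an upper bound of 0.82 FPKM, and had 204 FPKM (bounds 182 to 226) in floxed cells. A 3-exon form of 449 nt with nearly the same ends had 158 FPKM (bounds 137 to 179) in deficient and 11.8 FPKM (bounds 5.47 to 18.1) in floxed cells. The last form, of 381 nt with a later start, had 341 FPKM (bounds 308 to 375) in deficient and 262 FPKM (bounds 231 to 293) in floxed cells. The 449-nt and 381-nt forms matched no annotated structure, so counting matched transcripts alone would leave 0 in deficient cells. A listed 0 may be a failed estimate among overlapping forms, and this was not tested.

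**Figure D2:**
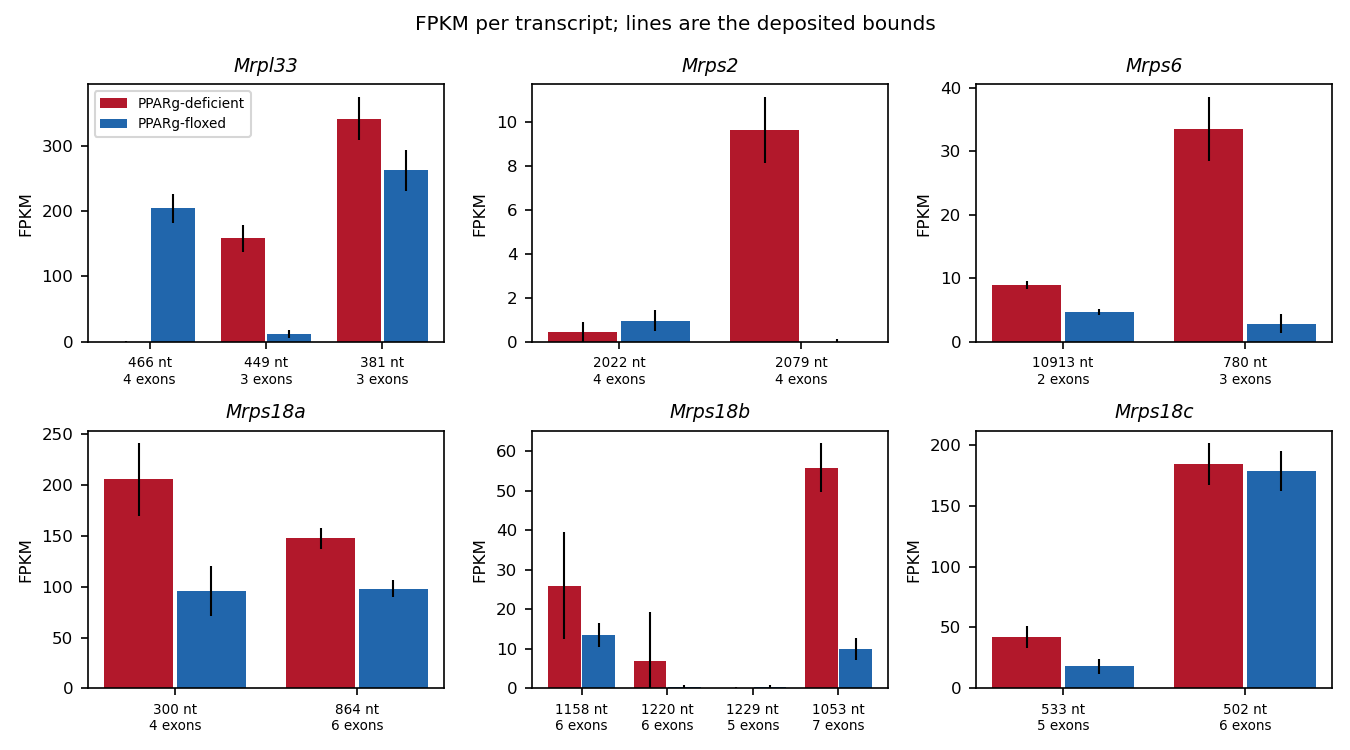
FPKM of each assembled transcript of Mrpl33, Mrps2, Mrps6, Mrps18a, Mrps18b and Mrps18c, 1 panel per gene, with PPARg-deficient bars left of PPARg-floxed bars and transcripts named by length and exon number. Each bar is 1 transcript in 1 library, and the lines are the deposited bounds. The 466-nt form of Mrpl33 (0 in deficient, 204 FPKM in floxed cells) and the 2079-nt form of Mrps2 (9.66 FPKM in deficient, 0 in floxed cells) each appear in 1 library.

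By list median, genes that work with the mitochondrial ribosome were closer to the median gene than the 72 genes together (0.47). The Mrps genes alone, at 0.17, lay among these lists, whose medians ran from -0.17 to 0.21. With a pseudocount of 0.1 FPKM the translation factors had 0.33, against 0.32 for the members. With a filter of 5 FPKM the regulators had 0.38, against 0.33. In each of these settings the other lists stayed below the members. Of 6 ribosomal or ribosome-bound proteins under other symbols, 5 were kept, with a median relative log2 fold of -0.17 and 0 past 2-fold in either direction. Dap3, which encodes the GTP-binding small subunit protein mS29, had 17.6 FPKM in deficient and 10.5 FPKM in floxed cells (-0.17). Ptcd3, which encodes mS39, where mRNA enters, had 60.3 FPKM in deficient and 47.0 FPKM in floxed cells (-0.50). Aurkaip1, which encodes mS38, had 60.2 FPKM in deficient and 47.0 FPKM in floxed cells (-0.51), and Oxa1l, which encodes the membrane insertase that binds the ribosome, had 10.99 FPKM in deficient and 6.19 FPKM in floxed cells (-0.12). These 4 were higher in deficient cells as deposited, but by less than the median gene. The remaining one, Chchd1, which encodes mS37 and was named after its values were seen, was the most abundant with 258 FPKM in deficient and 136 FPKM in floxed cells, and lay just above the median gene (0.07).

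Of 37 entries for assembly factors 25 were kept, with a median of 0.12, 1 at least 2-fold higher and 0 lower. The one was Mtg1, which encodes a GTPase that checks the large subunit, with 13.8 FPKM in deficient and 2.70 FPKM in floxed cells (1.14). Fastkd2, Mettl15 and Tfb1m, which encode an RNA-binding protein and a pair of small subunit rRNA methyltransferases, were next at 0.80, 0.78 and 0.78. Of 32 entries for translation factors and tRNA modification 24 were kept, with a median of 0.14, 3 higher (12.5%, near the 10.3% of all kept loci) and 0 lower. Tsfm, which encodes EF-Ts, had 12.0 FPKM in deficient and 1.47 FPKM in floxed cells (1.55), and Tufm, which encodes EF-Tu, had 9.99 FPKM in deficient and 2.03 FPKM in floxed cells (1.001). Trmt5, which encodes a tRNA methyltransferase, had 14.6 FPKM in deficient and 3.14 FPKM in floxed cells (1.06). Gatb, part of the glutaminyl-tRNA amidotransferase, had 10.9 FPKM in deficient and 11.9 FPKM in floxed cells (-0.97). With its most abundant transcript alone, Tufm had a relative log2 fold of 0.14.

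Of 19 aminoacyl-tRNA synthetases, the enzymes that load tRNAs, 13 were kept, with a median of 0.10, 1 higher and 1 lower. The lower one was Lars2, for leucine, with 51.5 FPKM in deficient and 213 FPKM in floxed cells (-2.89), the only kept gene of the mitochondrial lists that was 2-fold lower as deposited. Tars2 and Gars had 0.96 and 0.78.

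Genes of mitochondrial transcription and genome maintenance had a median of 0.21 over 11 kept of 14, with 0 past 2-fold. Tfam, which packages mitochondrial DNA and starts its transcription, was highest with 7.96 FPKM in deficient and 1.54 FPKM in floxed cells (0.96), followed by Tfb2m (0.80), Tfb1m and Top1mt (0.48). Of 11 regulators of nuclear genes for mitochondrial proteins 8 were kept, with a median of 0.06 and 0 past 2-fold. Myc had 20.4 FPKM in deficient and 5.38 FPKM in floxed cells (0.89), Nrf1 had 12.1 FPKM in deficient and 4.85 FPKM in floxed cells (0.30), and Gabpb1 had 2.41 FPKM in deficient and 1.79 FPKM in floxed cells (-0.57). Ppargc1a, the coactivator named for its binding to PPARg, was below 1 FPKM in both libraries.

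Beside these, 36 respiratory complex I subunit genes had a median of 0.35, with 9 at least 2-fold higher (25%) and 2 lower. Ndufs3, a core subunit, was highest with 16.4 FPKM in deficient and 1.20 FPKM in floxed cells (2.12), and Ndufa7 was lowest with 559 FPKM in deficient and 859 FPKM in floxed cells (-1.48). The 79 cytosolic ribosomal protein genes found had a median of 0.17, with 12 higher (15.2%) and 10 lower. With a pseudocount of 5 FPKM the complex I median was 0.75, above the 0.59 of the members, and that of cytosolic ribosomal proteins was 0.57. The complex I median ranged from 0.07 with TPM to 1.16 with no filter. No test of a difference between lists was possible.

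**Figure D3:**
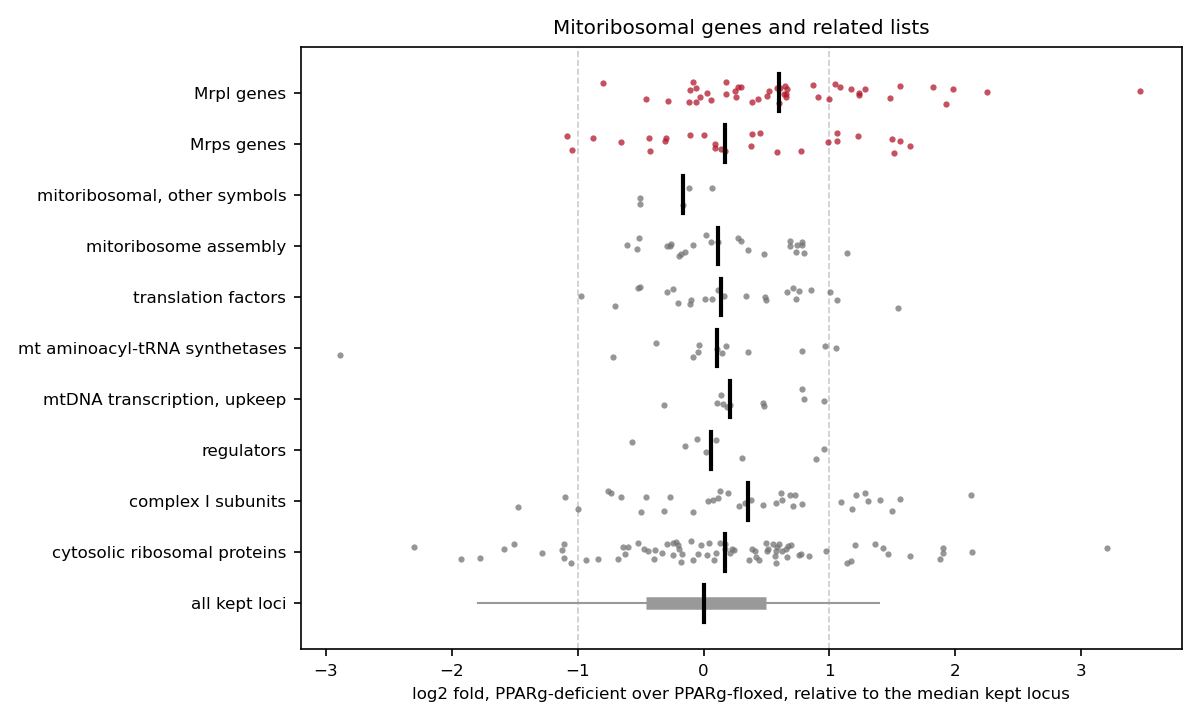
Relative log2 fold, deficient over floxed, of each kept gene by list, with 1 point per gene and a black line at each list's median. For all kept loci the thick bar runs between the quartiles and the thin line from the 5 to the 95 percentile. Zero is the median of 10724 kept loci, and the dashed lines mark 2-fold. The medians were 0.60 for Mrpl and 0.17 for Mrps genes, 0.35 for complex I, 0.17 for cytosolic ribosomal proteins and -0.17 to 0.21 for the other mitochondrial lists.

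GC content moved with the folds, and its part in them was not tested. Over the 72 genes, relative fold and GC content of the annotated transcript had correlations of 0.38 (Pearson) and 0.33 (Spearman), beside 0.12 for each over 8627 kept named loci. With the 72 genes in 3 equal groups by GC content, low to high, the median relative log2 folds were 0.17, 0.59 and 0.89, and 5, 6 and 9 of 24 genes were at least 2-fold higher. All kept named loci in the same GC ranges had medians of -0.06, -0.01 and 0.10, with 7.75%, 9.53% and 13.9% higher. By length, 3 equal groups from short to long had medians of 0.22, 0.62 and 0.48. All kept named loci in those length ranges had medians of 0.16, 0.23 and -0.03. Short loci as a whole were more often past the line, 19.1%, 18.3% and 8.34% of all kept named loci in those length ranges, and 4, 8 and 8 of the 24 genes in each group were higher. Centred on loci of like length, 15 of the 72 genes were at least 2-fold higher, against 9.33% of all kept loci. Centred on loci of like GC content, an alternative chosen after seeing the data, 19 were, against 9.70% of kept named loci. The median relative log2 folds of the 72 genes were 0.32 by length and 0.45 by GC content.

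**Figure D4:**
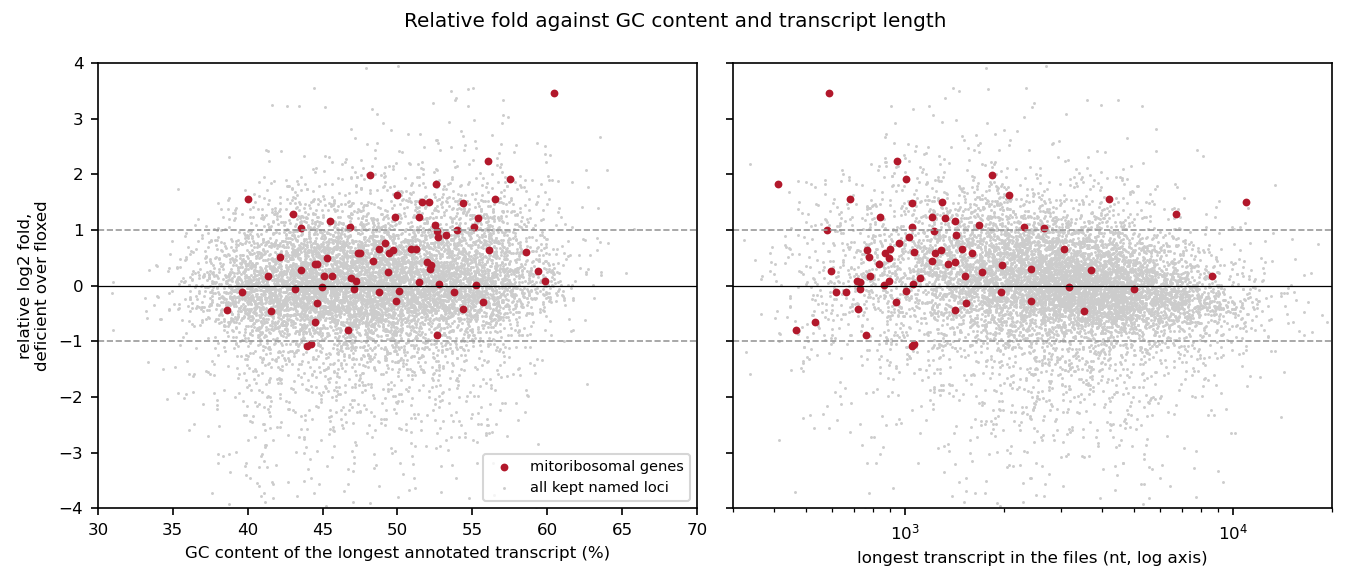
Relative log2 fold of the 72 kept mitochondrial ribosomal protein genes (coloured) and of kept named loci (grey) against GC content in percent and against transcript length in nt on a log axis. The axes stop at -4 and 4 in fold, and 66 grey loci lie outside the drawn range. The coloured points climb with GC content, with medians of 0.17, 0.59 and 0.89 in 3 equal groups of genes.

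Some of these genes share a start region with a neighbour on the opposite strand, and how common this is over all loci was not counted. Of the 72, 18 had a kept neighbour with a 5′ end within 1000 nt, reading away from it. They form 17 pairs, since Mrps11 and Mrpl46 are each other's neighbour. The 16 neighbours that are not members had a median relative log2 fold of 0.04, and the genes beside them 0.34. Of these neighbours 0 were at least 2-fold higher and 1 lower, against 10.3% and 11.7% of all kept loci. Folds of gene and neighbour had a Pearson r of -0.15 over these 16 pairs. Mrpl40 had 71.5 FPKM in deficient and 13.3 FPKM in floxed cells (1.48), while Hira, a histone chaperone gene that starts 113 nt away, had 1.53 FPKM in deficient and 0.36 FPKM in floxed cells (0.04). Mrpl30 had 263 FPKM in deficient and 111 FPKM in floxed cells (0.38), while Mitd1, 142 nt away, had 15.6 FPKM in deficient and 26.1 FPKM in floxed cells (-1.56). These genes and their neighbours were chosen for the text after their values were seen.

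One pair consists of members on both sides. Mrps11 and Mrpl46, which encodes mL46 of the large subunit, start 42 nt apart, and Mrpl46 had 86.6 FPKM in deficient and 25.4 FPKM in floxed cells (0.87), beside 1.06 for Mrps11. The start region of Mrps11 (chr7:78782881-78783160, plus strand, GRCm38.p6), which lies next to that of Mrpl46, holds a YY1 motif on the reverse strand, in capitals.
Mrps11: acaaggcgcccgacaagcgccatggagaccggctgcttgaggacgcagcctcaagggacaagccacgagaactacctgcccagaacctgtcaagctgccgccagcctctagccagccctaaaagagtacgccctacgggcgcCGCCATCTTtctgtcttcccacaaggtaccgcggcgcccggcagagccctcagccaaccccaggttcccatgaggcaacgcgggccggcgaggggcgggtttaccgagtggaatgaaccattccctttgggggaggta

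A gene on the other strand overlaps 7 of the members (Mrpl16, Mrpl24, Mrpl27, Mrpl40, Mrpl41, Mrpl48 and Mrps27). Whether the authors' tools kept strands apart is not given in the sources used here, so reads of such a pair could be mixed. The partners were the lower of each pair in both libraries.

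Motifs of factors known for nuclear-encoded mitochondrial genes were frequent at these starts. RefSeq promoter entries were matched by symbol for 69 of the 78 genes, in 75 windows of 280 bases, and both strands were searched. The NRF1 motif, written as GCGCA and GCGC with 1 free base between them, was in 17.3% of the 75 windows, against 6.11% of 21262 windows of protein-coding genes. The ETS motif CCGGAAG, to which GABPA binds, was in 32% of the windows, against 11.1%, and the YY1 motif AANATGGCG, where N is any base, in 9.33%, against 2.33%. The letters CACGTG, an E-box that MYC binds, were in 9.33%, against 7.49%, CCAAT in 37.3%, against 37.2%, and TATAAA in 6.67%, against 12.2%. A gene with several windows can count more than once. The 7 windows with the E-box came from 5 of the 69 genes, 3 of them from Mrpl2, and the 28 with CCAAT from 25 genes. No motif here contains another. At least one of the NRF1, ETS and YY1 motifs was in 48% of the windows, against 17.6% of all windows. The 33 kept genes with one had a median relative log2 fold of 0.52, and the 31 without one 0.50. For the more general motifs the medians with and without a match were 0.65 (5 genes) and 0.50 (59 genes) for the E-box, 0.30 (23 genes) and 0.60 (41 genes) for CCAAT, and 0.96 (4 genes) and 0.47 (60 genes) for TATAAA. None of these differences was tested. The direct repeat of AGGTCA with 1 free base between the copies, which PPARg binds with its partner RXR, was in 0 of the 75 windows and in 0.042% of all windows, so these letters were rare in any start region.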

How the data were processed

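Both deposited files list the same transcripts of a Cufflinks-style assembly and hold FPKM, with bounds, inside an attribute field beside other text. Per the submitters' processing notes, the tools were TopHat2 2.0.5, Cufflinks 2.0.2 and Cuffdiff 2.0.2 and the build was mm9, with no role or order given. Which annotation and filters were used, and whether strands were kept apart, is not given in the sources used here. The number of reads behind each FPKM is unknown, so no interval was computed.

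The 45543 transcripts in 25707 loci carry no gene symbols. They were matched to GENCODE M21 (GRCm38) by ordered intron and internal exon lengths, within a chromosome and strand, and no coordinate was converted. A whole chain of at least 2 introns named 17732 loci, a run of 3 lengths 351 and a single intron 964. On wrong chromosomes 0 of 36943 whole chains and 3 of 2883 single introns matched. Of the 75 genes found, 72 were named by a whole chain, 2 by a single intron, and Mrpl53 by a whole chain in a locus it shares. Genes without introns cannot be named, and 170 loci that matched several genes equally were split by transcript.

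FPKM was summed per locus. Loci of at least 1 FPKM in at least 1 library with a transcript of at least 300 nt were kept. Folds are log2 of FPKM + 1, deficient over floxed, called at 2-fold. A value was counted as moved by an alternative when it changed by more than 1.5-fold. The files hold no counts, so no count model was run. Python 3.11.15, numpy 2.4.6, pandas 2.3.3 and matplotlib 3.10.9 were used, and the fold step was tested on simulated data.

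The genes and lists were chosen with earlier results of these data known. The rule for genes named with values takes the 8 highest and 8 lowest relative folds, the 6 highest mean levels, the Mrps18 paralogs, the 3 genes nearest the median, genes within 0.1 (log2) of the 2-fold line, up to 4 genes per other list, and Pparg. Genes named for their transcripts, neighbours or stalk position were added after their values were seen. Values of a few listed genes are not reported here.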

Additional observations from a re-analysis of the deposited data

Results flagged for a closer look

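The locus of the mitochondrial genome itself, whose rRNA forms the core of the mitochondrial ribosome, could not be named because it has no introns. It was still counted, unnamed, among all kept loci. It spans 17 to 16299 on chromosome M (mm9) as 1 feature of 16283 nt. It was at 3723 FPKM in the deficient library, with deposited bounds of 3713 to 3733, and was listed at 0 in the floxed library. A listed 0 at a locus that every cell uses may be a failed estimate, so no fold is given, and this was not tested.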

How the results depend on the processing

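The median relative log2 fold of the 72 genes stayed positive under every alternative that gave one, from 0.23 with values rescaled to TPM to 1.24 with no filter on low values. Without the filter 24601 loci entered, also those below 1 FPKM in both libraries, whose folds the added 1 FPKM holds near 0. The median locus then had a log2 fold of 0.05, against 0.86 with the filter, which raises every relative fold. Relative to that locus, 45 genes were higher and 0 lower, against 17.0% and 2.16% of all 24601 loci. The medians were then 1.39 for Mrpl genes, 0.94 for Mrps genes, 0.47 for proteins under other symbols and 0.77 for assembly factors. They were 0.84 for translation factors, 0.74 for synthetases, 0.97 for mitochondrial transcription and 0.75 for regulators. The Mrps median was -0.04 with TPM, and that of proteins under other symbols ranged from -0.40 to 0.47. The 2 lower genes became 4 with a pseudocount of 0.1 FPKM, against 16.15% of all kept loci. They became 0 with a pseudocount of 5 FPKM, against 4%, and 0 where bounds had to be apart, against 8.05%. With the pseudocount of 0.1 FPKM, 17 of the 72 genes were higher, against 15.99% of all kept loci, a smaller excess than with 1 FPKM. With the pseudocount of 5 FPKM 18 were higher, against 8.51%. TPM without centring gave 11 higher and, as deposited, 3 lower, against 7.79% and 13.3%. Upper-quartile scaling without centring gave 17 higher and 3 lower as deposited, against 10.8% and 11.8%. A 1.5-fold line gave 32 higher and 5 lower, against 21.9% and 20.4% of all kept loci, and a 4-fold line 2 higher and 0 lower, against 1.501% and 3.95%, or 16 higher as deposited, against 7.95%. Counting matched transcripts only, chosen after seeing the data, gave 1 lower as deposited, Mrpl33 (-8.54), against 4.76% of loci kept there. Of 711 single-gene values, 72 moved by more than 1.5-fold, 55 of them with no filter, and none changed sign past 2-fold. Mrps12 ranged from 0.58 to 2.97 with the pseudocount. No paired analysis was possible because each genotype has 1 library, and no library could be left out. Read depth is unknown, and 81.7% of summed FPKM in deficient and 61.6% in floxed cells lay in transcripts under 300 nt, which limits any scaling by totals.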
